A study of Mus musculus with 20 samples.

Results

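The insulin and IGF receptors, the insulin receptor substrates and the Grb adaptors that bind these receptors are described here in ribosome pulldowns aimed at tanycytes of the mouse hypothalamus. The group was chosen by gene name and holds 8 of the 44674 genes counted: Insr, Igf1r, Igf2r, Irs1, Irs2, Irs4, Grb10 and Grb14. All 8 were expressed and tested in each comparison. Messenger RNA bound to ribosomes was isolated by translating ribosome affinity purification, in which a GFP-tagged L10a ribosomal protein, switched on by Cre, is pulled down from a tissue lysate. RNA of each immunoprecipitate (IP) and of the lysate before pulldown (input) was sequenced. Arcuate nucleus and median eminence of several mice, males and females together, were pooled for each replicate.

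The 3 groups were NCD control (3 pools), IRΔTan on NCD (3 pools) and HFD control (4 pools), each pool giving an IP and an input, 20 libraries in all. All mice carried Rosa26-L10-EGFP tg/wt, and at 12 weeks of age a virus, AAV-Dio2-CreTW, was put into the lateral ventricle 4 weeks before the tissue was taken. IRΔTan mice were IR fl/fl, so that Cre removed a part of Insr, and the design text gives both control groups as IR wt/wt mice with the same virus, whereas their sample labels read IRmKate2. The controls therefore share the virus and the tagged ribosome with IRΔTan mice and differ in the floxed allele, if the design text holds. Cre was driven by the promoter of Dio2, so tagging and deletion are limited to cells in which that viral promoter is active. NCD gave 9% and HFD 60% of calories as fat. HFD began at about 4 weeks of age according to the labels, and lasted 8 weeks according to the design text. Pool size is given as 5 to 7 mice in one place and as 4 to 7 hypothalami in another.

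Insulin binds the insulin receptor (Insr) and IGF1 the related IGF1 receptor (Igf1r), both of them tyrosine kinases that phosphorylate insulin receptor substrates. These scaffolds recruit PI3-kinase, which leads to activation of AKT. Grb10 and Grb14 bind the activated receptors and restrain them, and Igf2r, a receptor without kinase activity, takes IGF2 and mannose 6-phosphate-tagged enzymes to lysosomes. Tanycytes line the floor of the third ventricle and carry circulating hormones into the hypothalamus.

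Libraries held 29469101 to 59385265 estimated counts. Levels are given as CPM, which are counts relative to the summed counts of the genes in the authors' deposited tables, scaled by the TMM method over the 20 libraries. Relative to all counts of a library they are lower. For Insr in IRΔTan pool 1 this gave 46.4 in place of 71.0 CPM in the input and 14.7 in place of 18.9 CPM in the IP. Changes are given as log2 fold changes with the standard error (SE) of edgeR's quasi-likelihood test. Adjusted P is the Benjamini-Hochberg value over every gene in a comparison, and a gene was called at an adjusted P under 0.05. In NCD controls 13 of 17 tested tanycyte markers and 10 of 10 ependymal markers were higher in the IP than in the input, and 17 of 17 neuron markers were lower. The median log2 change was 3.42 for the tanycyte list, with 1 marker lower, and 5.67 for the ependymal list, the larger of these. The IPs were not free of other cells, so their values are not those of tanycytes alone. Neuron markers summed to 6994 to 8819 CPM in the NCD control IPs, and no marker list had a member at 0 in every library of a group. As these are bulk samples, fewer cells of a type and less RNA per cell cannot be told apart.

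The targeted gene is shown first because the deletion defines the IRΔTan group. The part flanked by loxP sites is exon 4 of Insr (ENSMUSG00000005534, minus strand of GRCm38 chr8:3122061-3279617). In the reference transcript of 21 exons this exon has 149 bases and lies at chr8:3204630-3204778. The exon, read from the GENCODE transcript and all of it coding, is:
Insr exon 4: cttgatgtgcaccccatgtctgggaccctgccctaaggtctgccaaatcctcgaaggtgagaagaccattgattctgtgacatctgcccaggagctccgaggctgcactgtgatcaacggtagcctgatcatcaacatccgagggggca
Its length leaves a remainder of 2 when divided by 3, so joining exon 3 to exon 5 shifts the reading frame. The last 30 bases of exon 3 and, in capitals, the first 30 of exon 5 give this junction:
Insr exon 3 to exon 5: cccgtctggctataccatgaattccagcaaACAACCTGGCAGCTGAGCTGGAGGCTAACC
In the shifted frame the first stop codon comes after 329 codons, in place of 1372 codons in the intact transcript, and 13 bases of exon 5 are read before it. The exon makes up 1.59% of the transcript, and an exon with these coordinates is in 1 of the 5 annotated Insr transcripts. What its loss alone does to the estimated count of the gene was not tested. Reads over single exons were not analysed here.

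The 3 substrate genes share a stretch of promoter sequence. Among the promoters of RefSeq (GRCm38.p6), 7 of the 8 members had an entry (all but Insr), with Grb10 represented by windows at more than one start site. In the 250 bases before the start, 4 motifs were searched on both strands: the FOXO site TGTTTAC, the core of the insulin response sequence CAAAACA (on the other strand TGTTTTG), the cAMP response element TGACGTCA and the E-box CACGTG. The windows of Irs1, Irs2 and Irs4 each held CAAAACA and CACGTG, which 5.56% and 6.02% of 32851 promoters of this length hold and which 0.295% hold together. No other member held CAAAACA, and Igf2r held 2 E-boxes. The stretches around the E-box are shown 5′ to 3′ on the gene's strand, with the E-box and the insulin response core in capitals, because in all 3 the motifs adjoin or overlap.
Irs1, chr1:82291519-82291584, minus strand: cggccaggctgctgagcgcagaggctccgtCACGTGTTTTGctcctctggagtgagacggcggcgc
Irs2, chr8:11008938-11009003, minus strand: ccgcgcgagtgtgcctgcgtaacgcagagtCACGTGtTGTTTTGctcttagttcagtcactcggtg
Irs4, chrX:141725336-141725401, minus strand: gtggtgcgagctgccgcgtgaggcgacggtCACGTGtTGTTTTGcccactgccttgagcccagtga
In Irs2 and Irs4 a single base parts the E-box from the core, and in Irs1 they share bases. The composite CACGTGNTGTTTTG was found in 2 of the 32851 windows, those of Irs2 and Irs4, and CACGTGTTTTG in 5, that of Irs1 among them. These composites were looked for after the sequences had been seen. A match is a description of the letters and not a site of binding.

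The members spanned more than an order of magnitude in level, with Irs4 and Grb10 on top. In NCD control IPs, levels per kilobase of the longest transcript were 30.6 ± 3.11 CPM per kb (SD, n = 3) for Irs4 and 27.1 ± 1.44 for Grb10. They were 8.17 ± 1.07 for Irs2, 5.57 ± 0.162 for Insr, 5.46 ± 0.551 for Irs1 and 5.17 ± 0.618 for Grb14. The lowest were Igf2r at 3.09 ± 0.185 and Igf1r at 2.29 ± 0.16 CPM per kb. The levels of Irs4 and Grb10 overlapped in this order within their spread, as did those of Insr, Irs1 and Grb14. With the length of all annotated exons in place of the longest transcript, Grb10 fell to 15.1 CPM per kb and kept its place. Grb14 fell to 2.01, below Igf2r at 2.95, and Insr to 3.79, below Irs1 at 5.46. The places of Grb14 and Insr thus depend on the length used. Over the 6 groups of libraries, Insr was highest in the NCD control inputs at 88.4 ± 1.31 CPM (SD, n = 3), followed by the HFD control inputs at 78.2 ± 5.22 (n = 4) and the IRΔTan inputs at 76.7 ± 6.32 (n = 3), and the HFD control and IRΔTan inputs overlapped. Below them and without overlap came the IPs of HFD controls at 60.5 ± 3.98 (n = 4), NCD controls at 52.1 ± 1.52 (n = 3) and IRΔTan at 17.7 ± 4.01 (n = 3). Igf2r was highest in the HFD control IPs at 54.3 ± 8.80 CPM (n = 4), which overlapped the inputs at group means of 38.9 to 42.4, and the NCD control and IRΔTan IPs lay below all of these at 27.5 ± 1.65 and 25.7 ± 1.92 (n = 3 each). For Igf1r, with group means of 24.3 to 29.3 CPM, and Irs1, with 41.6 to 51.0 CPM, all neighbours in the order overlapped. Irs2 and Irs4 were highest in the HFD control IPs (83.4 ± 8.09 and 302.8 ± 37.2 CPM, n = 4), which overlapped the IRΔTan IPs (67.1 ± 8.94 and 266.6 ± 9.79, n = 3), and both stood above the NCD control IPs (51.6 ± 6.77 and 192.5 ± 19.6, n = 3) and the inputs. Grb10 was highest in the HFD control IPs at 254.0 ± 30.7 CPM (n = 4), which overlapped the IRΔTan inputs at a mean of 218.2, and was lowest in the IRΔTan IPs at 169.5 ± 2.27 and, below them, the NCD control IPs at 137.3 ± 7.29 (n = 3 each). Grb14 was higher in the inputs, with group means of 33.3 to 35.5 CPM, than in the HFD control IPs at 19.7 ± 1.93 (n = 4), the IRΔTan IPs at 15.2 ± 3.66 and the NCD control IPs at 14.5 ± 1.73 (n = 3 each), of which neighbours overlapped. The plot of levels by library shows each gene over the 6 groups of libraries.

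**Figure D1:**
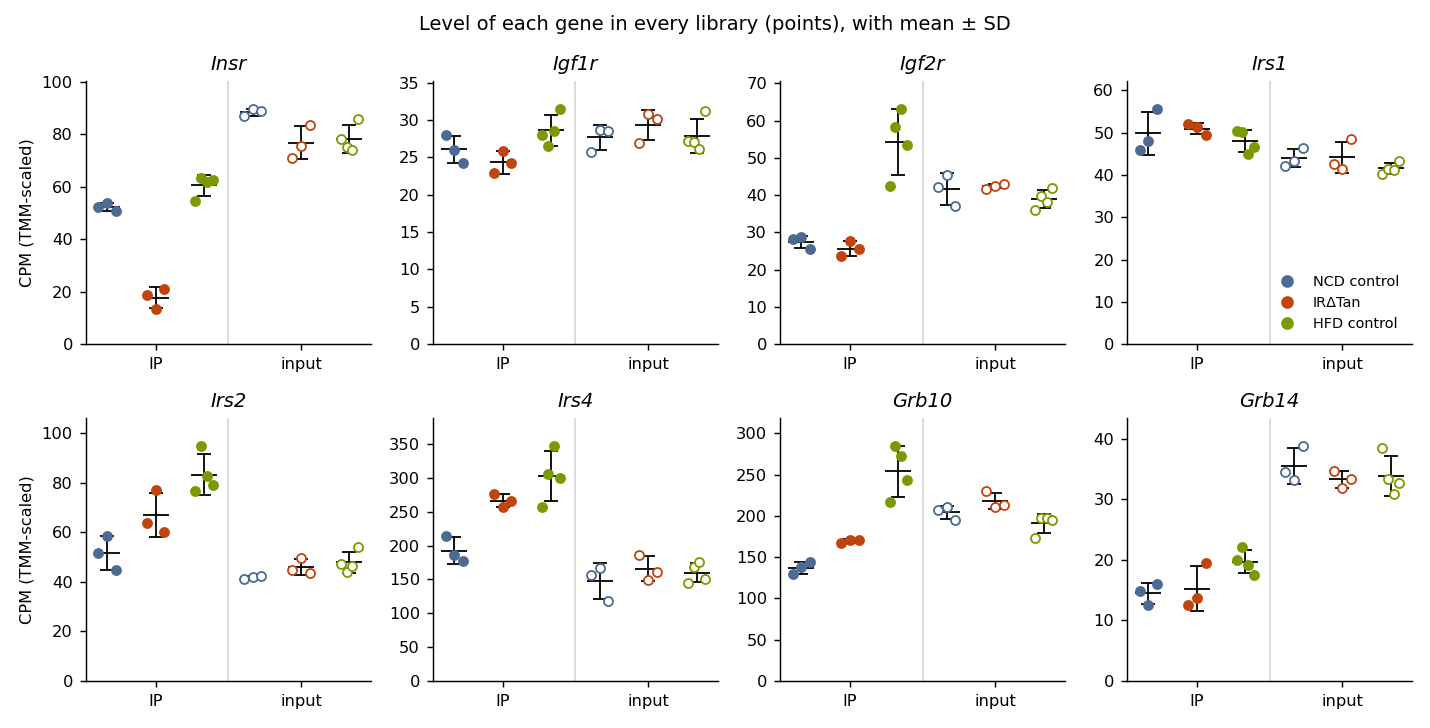
TMM-scaled CPM of the 8 genes in each of the 20 libraries, IPs as filled and inputs as open points, with the group mean and SD as black bars, and each axis starting at 0. Insr in the IRΔTan IPs lies between 13.2 and 21.0 CPM, below every other library, and Igf2r and Grb10 are above the NCD control IPs in each HFD control IP.

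Within families, the Insr share of receptor RNA was lower in every IRΔTan IP, and the substrates had the order Irs4, Irs2, Irs1 in all 20 libraries. Of the summed CPM per kb of Insr and Igf1r, Insr made up 69.5% to 71.7% in NCD control IPs, 70.4% to 74.4% in HFD control IPs and 38.4% to 51.4% in IRΔTan IPs. The IRΔTan share was thus below both other groups without overlap. The input share was 79.2% to 80.5%, 74.9% to 77.2% and 77.0% to 77.8% in NCD control, IRΔTan and HFD control. Irs4 supplied the most substrate RNA in every library, between 61.4% and 75.4% of the 3 substrates, and Irs2 came second with 16.6% to 22.9%. Irs1 supplied 12.4% ± 2.07 (SD, n = 3) in NCD control IPs, 9.52% ± 0.0512 (n = 3) in IRΔTan IPs and 7.97% ± 1.11 (n = 4) in HFD control IPs. Both the IRΔTan range, 9.47% to 9.56%, and the HFD range, 6.74% to 9.43%, lay below the NCD control range, 10.6% to 14.7%. Of Grb10 and Grb14, Grb10 supplied 82.8% to 88.7% in the IPs and 71.4% to 78.6% in the inputs. Over 30 comparisons of such shares by exact two-sided permutation tests none passed after adjustment, the smallest adjusted P being 0.273.

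**Figure D2:**
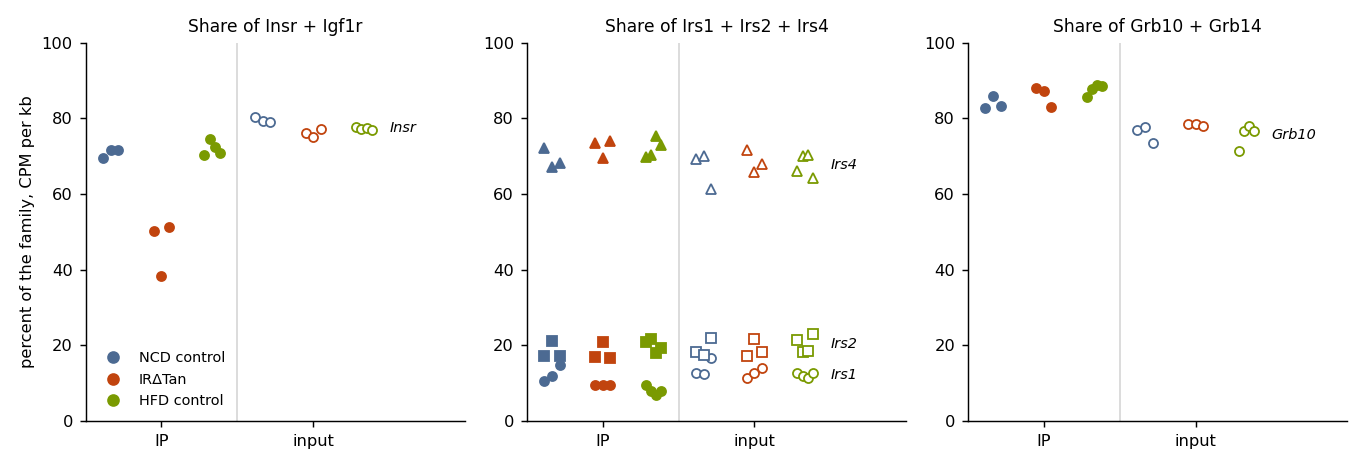
Share of each gene in its family in every library, in percent of the family's CPM per kb of longest transcript (left, Insr of Insr and Igf1r; middle, Irs1 as circles, Irs2 as squares and Irs4 as triangles; right, Grb10 of Grb10 and Grb14), IPs filled and inputs open. The Insr share is 38.4% to 51.4% in the IRΔTan IPs and at least 69.5% in every other library.

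The first comparison asked what loss of the insulin receptor from tanycytes does to ribosome-bound RNA. Insr was the only member called, and it had the smallest P of all genes tested. Its level was 52.2, 53.6 and 50.5 CPM in the NCD control IPs and 18.9, 13.2 and 21.0 CPM in the IRΔTan IPs. The groups were far apart, with 33.9% of the control level left (log2 fold change -1.56, SE 0.13; adjusted P = 6.04e-05 from edgeR). The exact permutation P was 0.1, the smallest that 3 against 3 pools allow. Thus 1 of 8 members was called, and it is the gene that was targeted to make the IRΔTan group. None of the other members was called. In this comparison 0.0962% of 13520 genes were called, 0.0222% higher and 0.074% lower.

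In the inputs, Insr was 86.9, 89.5 and 88.8 CPM in NCD controls and 71.0, 75.6 and 83.5 CPM in IRΔTan mice. The input levels did not overlap either, but the difference was small and not called (-0.20, SE 0.12; adjusted P = 1). No member was called in the inputs by edgeR or DESeq2, and none had an unadjusted P under 0.05, where 0.0074% of genes were called. The fall of Insr in the IP exceeded that in the input by -1.35 (SE 0.17; adjusted P = 0.0201), and Insr was the 1 gene of all tested, 0.0074%, called in this test of the difference. That call was lost without NCD control pool 1 (adjusted P = 0.503), NCD control pool 2 (0.333) or IRΔTan pool 1 (0.155), while the value itself stayed between -1.46 and -1.33 in those fits.

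Irs2, Irs4 and Grb10 lay above the controls in each IRΔTan IP but did not pass the test. How many of all genes lay apart in this way was not counted. In the inputs Irs2 (0.13, SE 0.12) and Grb10 (0.10, SE 0.07) lay above every control library as well, without a call. The genotype difference between IP and input was not called for Irs2, Irs4 or Grb10. Irs4, a substrate with a restricted expression that includes the hypothalamus, was 215, 186 and 177 CPM in the NCD control IPs and 277, 257 and 266 CPM in the IRΔTan IPs (0.47, SE 0.12; adjusted P = 0.141). Irs2, the substrate through which much of hepatic and hypothalamic insulin signalling runs, was 51.5, 58.5 and 44.9 CPM and 63.9, 77.2 and 60.2 CPM (0.38, SE 0.12; adjusted P = 0.194). The highest control library was below the lowest IRΔTan library for both. The adaptor Grb10 was 130, 138 and 145 CPM and 167, 171 and 171 CPM (0.30, SE 0.07; adjusted P = 0.0847). With DESeq2 both Grb10 (adjusted P = 0.00244) and Irs4 (0.0211) passed, but DESeq2 called 237 genes in this comparison and edgeR 13, with 1842 genes at an unadjusted P under 0.05 in edgeR.

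The remaining members overlapped between the groups. Igf1r, which can form hybrids with the insulin receptor, was 27.9, 26.0 and 24.3 CPM in NCD control IPs and 22.9, 25.9 and 24.2 CPM in IRΔTan IPs (-0.10, SE 0.10; adjusted P = 0.717). The log2 changes of Igf2r, Irs1 and Grb14 were -0.10, 0.03 and 0.07, each smaller than its SE. The change of Igf1r also stayed within its SE. No marker of any cell type was called in this comparison by edgeR, and DESeq2 called 2 neuron markers higher and 1 oligodendrocyte and 3 microglia markers lower. The sum of microglia markers was 60.5 to 67.0 CPM in the NCD control IPs and 39.6 to 46.2 CPM in the IRΔTan IPs. Whether that difference has a part in these values was not tested.

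**Figure D3:**
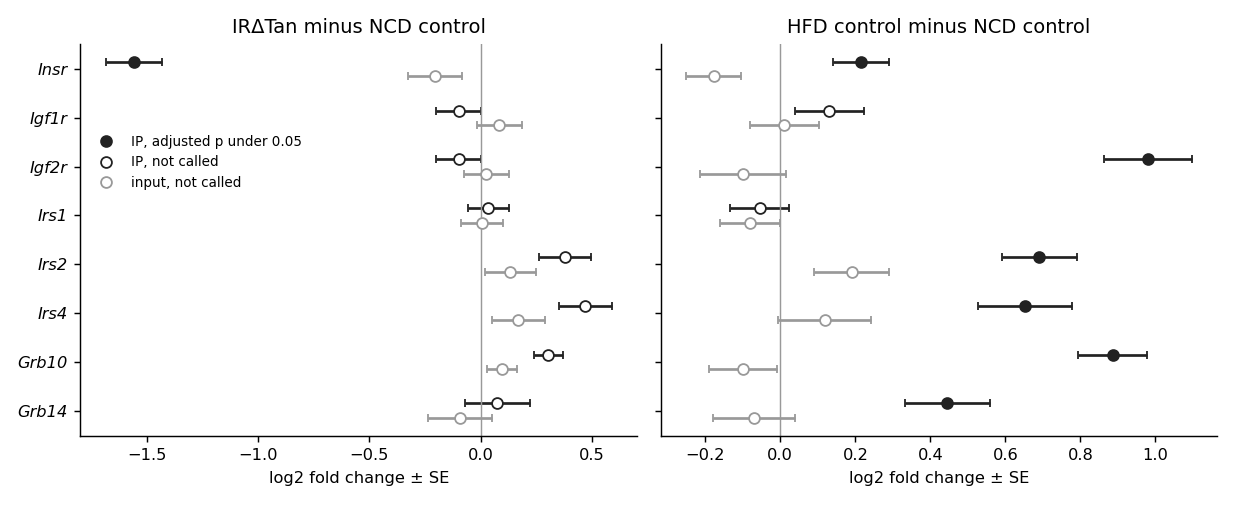
Log2 fold change ± SE of each gene in IRΔTan (left) and HFD control (right) against NCD control, with IPs in black and inputs in grey, and filled points for an adjusted P under 0.05 in edgeR. Insr at -1.56 is the only filled point on the left, 6 genes are filled on the right, and no input point is filled.

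The second comparison set HFD against NCD feeding in control mice. Of the 8 members 6 rose in the IP and none fell, in a comparison in which 25.7% of 13558 genes were called higher, 26.4% lower and 52.1% in either direction. Both diet and genotype were compared with the same NCD control pools. Igf2r and Grb10 rose most, followed by Irs2, Irs4 and Grb14, and Insr rose least. Igf1r and Irs1 were not called. The median log2 change of the 8 genes was 0.55, and that of all genes tested -0.04.

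Among the receptors, Igf2r (ENSMUSG00000023830, minus strand of chr17:12682406-12769664) was 28.2, 28.6 and 25.6 CPM in the NCD control IPs and 42.5, 58.2, 63.0 and 53.5 CPM in the HFD control IPs. Every HFD library was above every NCD library (0.98, SE 0.12; adjusted P = 1.21e-05; exact permutation P = 0.0286, the smallest that 4 against 3 pools allow). Insr was 54.6, 63.3, 61.7 and 62.5 CPM on HFD, above the 50.5 to 53.6 CPM of NCD control IPs by a small margin (0.21, SE 0.07; adjusted P = 0.0226; exact permutation P = 0.0571). This call was fragile. It was lost without HFD control pool 2 (adjusted P = 0.0595), HFD control pool 3 (0.121), NCD control pool 1 (0.0611) or NCD control pool 3 (0.0837), in a fit of the IPs alone (0.0849) and in a fit of all 20 libraries (0.0954). Igf1r (ENSMUSG00000005533, plus strand of chr7:67952827-68233668) was 28.0, 26.5, 28.5 and 31.4 CPM on HFD and overlapped the NCD controls (0.13, SE 0.09; adjusted P = 0.242).

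Among the substrates, Irs2 (ENSMUSG00000038894, minus strand of chr8:10984681-11008458) was 76.6, 94.9, 82.7 and 79.2 CPM in the HFD control IPs, all above the NCD maximum of 58.5 CPM (0.69, SE 0.10; adjusted P = 5.5e-05). Irs4 (ENSMUSG00000054667, minus strand of chrX:141710998-141725263) was 256, 307, 347 and 301 CPM, all above the NCD maximum of 215 CPM (0.65, SE 0.12; adjusted P = 0.000521). Irs1 (ENSMUSG00000055980, minus strand of chr1:82233101-82291416), a main substrate in muscle and fat, was not called. Its levels of 50.3, 50.2, 45.1 and 46.6 CPM on HFD overlapped the 46.0, 48.1 and 55.6 CPM of the controls (-0.05, SE 0.08; adjusted P = 0.584).

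Among the adaptors, Grb10 (ENSMUSG00000020176, minus strand of chr11:11930508-12038683), an imprinted gene whose product restrains insulin and IGF1 signalling, was 216, 285, 272 and 243 CPM in the HFD control IPs against 130 to 145 CPM in the NCD control IPs. The increase was 1.85-fold without overlap (0.89, SE 0.09; adjusted P = 4.61e-06). Grb14 (ENSMUSG00000026888, minus strand of chr2:64912476-65024987), its relative, had the lowest CPM, not divided by length, of the members that rose, with 20.0, 22.1, 19.2 and 17.5 CPM against 14.9, 12.6 and 15.9 CPM (0.44, SE 0.11; adjusted P = 0.00384). For Irs2, Irs4, Grb10 and Grb14 the exact permutation P was 0.0286.

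No member was called between the HFD and NCD inputs by edgeR or DESeq2, where 11.8% of genes were called, 6.4% higher and 5.41% lower. The log2 changes of members ran from -0.18 (Insr, the 1 member with an unadjusted P under 0.05) to 0.19 (Irs2). With a fit of the inputs alone Irs2 passed (0.22; adjusted P = 0.0289). The test of the difference between IP and input called the same 6 genes as the IP comparison, all with the larger change in the IP, where 21.8% of genes were called higher, 18.4% lower and 40.1% in either direction. The difference was 1.08 (SE 0.16; adjusted P = 0.000187) for Igf2r and 0.98 (SE 0.13; adjusted P = 8.46e-05) for Grb10. It was 0.53 (SE 0.17) for Irs4, 0.52 (SE 0.16) for Grb14, 0.50 (SE 0.14) for Irs2 and 0.39 (SE 0.10) for Insr, with adjusted P of 0.0235, 0.0162, 0.0106 and 0.0072. Without HFD control pool 3, Igf2r and Grb10 alone passed. Grb14 was also lost without HFD control pool 2 (adjusted P = 0.0536), Irs2 without NCD control pool 3 (0.0548), and Irs4 without HFD control pool 4 (0.0626) or NCD control pool 2 (0.133). With the length trend described below removed, Irs2 (0.18; adjusted P = 0.285) and Irs4 (0.22; adjusted P = 0.333) were not called, Insr turned to -0.12 (adjusted P = 0.312), and Igf1r (-0.48; adjusted P = 0.0178) and Irs1 (-0.47; adjusted P = 0.01) were called lower.

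Other quantities moved with diet in the same IPs. All 17 tested neuron markers were higher in the HFD than in the NCD control IPs, and their summed level was 11710, 15030, 12500 and 11570 CPM on HFD against 6994 to 8819 CPM. Of 17 tested tanycyte markers 7 were lower and none was higher, and their sum was 1960, 1001, 1529 and 1681 CPM on HFD against 1999 to 2431 CPM. Ependymal markers were lower for 7 of 10, with sums of 559 to 1022 CPM against 1243 to 1518 CPM. Markers of oligodendrocytes (7 of 11), their precursors (4 of 5) and microglia (7 of 10) were higher. HFD control pool 2, the highest in neuron markers and the lowest in tanycyte markers, had the highest Irs2, Grb10, Grb14 and Insr of the HFD IPs and the lowest Igf1r. Pool 3 had the highest Igf2r and Irs4, and pool 1 the highest Irs1. The part of these markers in the members' changes was not tested.

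Transcript length moved with diet too, which was examined, in 4 equal groups of genes, after the data had been seen. Among tested genes in the group with the longest transcripts, from 4790 bases up, 44.3% were higher and 15.45% lower in the HFD control IPs. In the group with the shortest 9.23% were higher and 38.8% lower. Of the 8 members 7 were in the group of the longest, Grb14 being the exception. After removal of a smooth trend in length from each library, Grb10 (0.74), Igf2r (0.63), Grb14 (0.48), Irs2 (0.47) and Irs4 (0.44) remained higher on HFD at adjusted P of 5.42e-06 to 0.00686. Insr turned to -0.15 and was not called (adjusted P = 0.0618), while Igf1r at -0.29 (adjusted P = 0.0247) and Irs1 at -0.40 (adjusted P = 0.00154) were called lower.

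**Figure D4:**
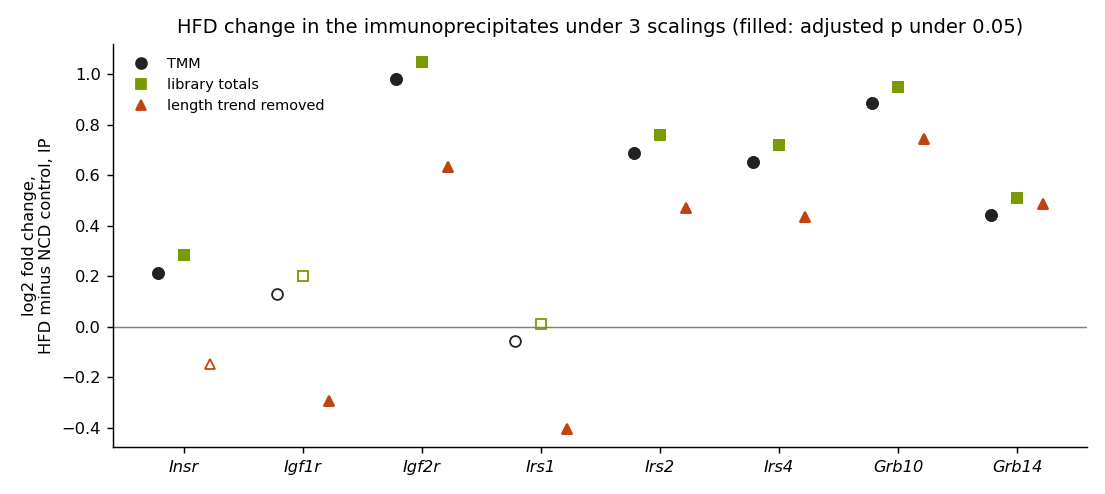
Log2 fold change of each gene, HFD control minus NCD control in the IPs, with TMM scaling (circles), scaling to library totals (squares) and TMM with the length trend removed (triangles), filled for an adjusted P under 0.05. Igf2r, Irs2, Irs4, Grb10 and Grb14 are above 0.4 and filled in all 3 scalings, whereas Insr runs from 0.28 to -0.15.

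The IP was then compared with the input of the same pools, which asks whether a transcript was more or less abundant on tagged ribosomes than in the tissue. Irs1, Irs2 and Irs4 had the higher TMM-scaled CPM in the IP in 10 of 10 pools, and Insr and Grb14 in 0 of 10. Relative to all counts of a library, Insr was higher in the IP in every HFD control pool. It was then at 47.8 to 53.6 CPM in the HFD control IPs and 45.8 to 46.95 CPM in the inputs. The log2 ratio of Irs1 was as low as 0.031, in IRΔTan pool 3. The share of all genes with the same sign in all 10 pools was not counted. In NCD controls 6 members were called in a comparison in which 66.9% of genes were called, 33.9% higher and 33% lower. Irs4 (0.41, SE 0.12; adjusted P = 0.00694) and Irs2 (0.33, SE 0.12; adjusted P = 0.0202) were higher in the IP. Grb14 (-1.27, SE 0.15), Insr (-0.73, SE 0.12), Igf2r (-0.57, SE 0.10) and Grb10 (-0.55, SE 0.07) were lower, with adjusted P of 2.41e-06 to 0.000145. Irs1 (0.21; adjusted P = 0.0593) and Igf1r (-0.06; adjusted P = 0.641) were not called. The call of Irs2 was lost without NCD control pool 1 (0.33; adjusted P = 0.0843) or pool 2 (0.22; adjusted P = 0.16), and with a covariate of Y-linked genes, as the pools mix males and females (0.20; adjusted P = 0.135).

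In IRΔTan mice all 8 members were called, 3 higher and 5 lower in the IP, where 66.9% of genes were called, 34.2% higher and 32.6% lower. Insr had the lowest ratio, with log2 IP over input of -1.88, -2.47 and -1.97 in the 3 pools against -0.73, -0.73 and -0.81 in NCD controls. Irs4 (0.71, SE 0.12), Irs2 (0.58, SE 0.12) and Irs1 (0.23, SE 0.09; adjusted P = 0.0358) were higher. Igf1r was barely past the threshold (-0.24, SE 0.10; adjusted P = 0.0493), and with the pool as a replicate block, pairing each IP with its own input, it was not called (-0.24; adjusted P = 0.0697). Its call was also lost without any single pool of either genotype (adjusted P = 0.0552 to 0.188), and that of Irs1 without IRΔTan pool 1 (0.186) or pool 2 (0.196). The Y-linked covariate ended both calls as well (adjusted P = 0.106 for Igf1r and 0.0978 for Irs1).

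In HFD controls 7 members were called, 5 higher and 2 lower, where 54.2% of genes were called, 27.7% higher and 26.5% lower. Igf2r and Grb10 changed sides relative to NCD controls, though with the length trend removed Igf2r in NCD controls was at 0.023. Their log2 ratios in the 4 HFD pools were 0.23, 0.55, 0.72 and 0.35 for Igf2r and 0.32, 0.53, 0.47 and 0.32 for Grb10, all above 0. In the 6 NCD pools, both genotypes, they were below 0, from -0.80 to -0.53 for Igf2r and from -0.67 to -0.31 for Grb10. Neuron markers, lower in the NCD control IPs by a median of -1.18, had a median of -0.35 in HFD controls, with 2 of 17 higher and 9 lower. Irs4 (0.92, SE 0.12), Irs2 (0.80, SE 0.09) and Irs1 (0.21, SE 0.07; adjusted P = 0.0258) were higher in the IP on HFD, and Grb14 (-0.78, SE 0.10) and Insr (-0.37, SE 0.07) lower. The call of Irs1 was lost without HFD control pool 1, 2 or 3 (adjusted P = 0.123, 0.0924 and 0.0614).

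A ratio of IP to input also depends on the scaling. Under library totals the median of all genes moved up by 0.39 in NCD controls, 0.29 in IRΔTan and 0.52 in HFD controls, and Insr in HFD controls then read 0.16 (adjusted P = 0.0532) and Igf1r in NCD controls 0.33 (adjusted P = 0.0135). With the length trend removed Insr in NCD controls was no longer called (-0.11; adjusted P = 0.422) and Igf1r was called higher (0.70; adjusted P = 2.35e-05). Igf2r (-0.19; adjusted P = 0.123) and Grb10 (-0.16; adjusted P = 0.0984) in NCD controls were not called under library totals. In IRΔTan mice, 3 of the 5 lower calls ended under a scaling. With the length trend removed Igf2r (-0.073; adjusted P = 0.549) and Grb10 (-0.095; adjusted P = 0.212) were not called and Igf1r was called higher (0.56; adjusted P = 0.000171), and under library totals Grb10 (-0.043; adjusted P = 0.657) and Igf1r (0.054; adjusted P = 0.667) were not called. Irs2 and Irs4 were called higher in the IP in each of the 3 groups, and Grb14 was below 0 in each, under both of these scalings.

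**Figure D5:**
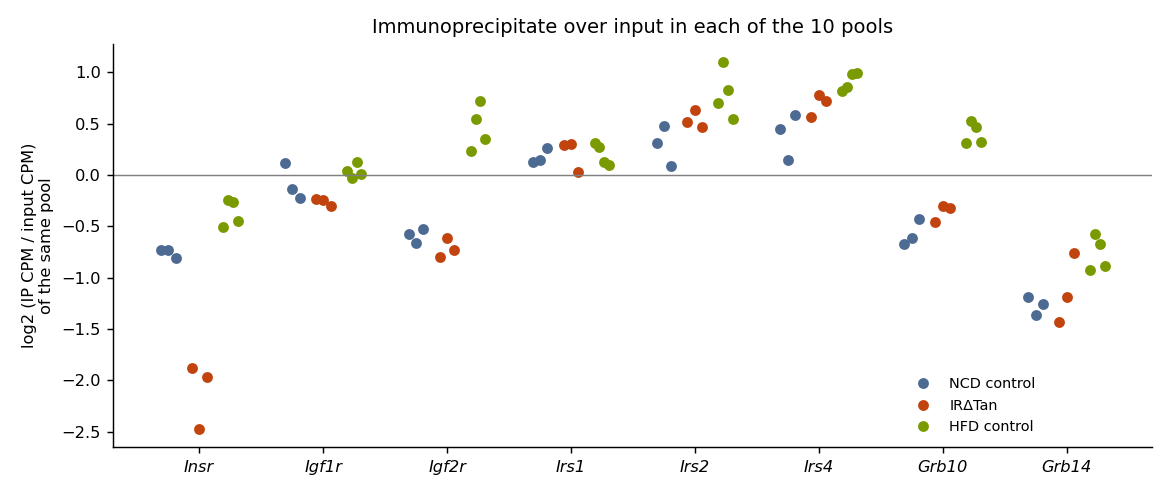
Log2 ratio of IP to input CPM (0.5 added to each) of the same pool, for each gene and each of the 10 pools, colored by group. With TMM scaling, the substrates are above 0 in all 10 pools and Insr and Grb14 below 0 in all 10. Igf2r and Grb10 are above 0 only in the 4 HFD control pools. The share of all genes with the same sign in all 10 pools was not counted.

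HFD control and IRΔTan IPs were compared directly, a comparison in which diet and genotype both differ. Relative to IRΔTan, 6 members were higher on HFD and none lower under TMM scaling, with 24.5% of 13680 genes called higher, 25.4% lower and 50% in either direction. Insr, the smallest P of all genes, differed most (1.77, SE 0.11; adjusted P = 1.05e-08), followed by Igf2r (1.08, SE 0.11; adjusted P = 4.28e-07) and Grb10 (0.58, SE 0.08; adjusted P = 1.24e-05). Grb14 (0.37, adjusted P = 0.0238), Irs2 (0.31, adjusted P = 0.0159) and Igf1r (0.23, adjusted P = 0.0389) passed by less, and each of these calls was lost in a fit of the IPs alone and without IRΔTan pool 1, where the count fell from 6 to 3. Other pools whose removal ended a call were IRΔTan pool 2 (Grb14, 0.113), IRΔTan pool 3 (Irs2, 0.0955, and Igf1r, 0.0882), HFD control pool 2 (Grb14, 0.0856, and Irs2, 0.0631) and HFD control pools 1, 3 and 4 (Igf1r, 0.0519, 0.0866 and 0.108). With the length trend removed Irs2 was at 0.062 (adjusted P = 0.641) and Igf1r (-0.28; adjusted P = 0.0253) and Irs1 (-0.50; adjusted P = 0.00015) were called lower. Irs4 (0.18, SE 0.12; adjusted P = 0.2) and Irs1 (-0.09, SE 0.08; adjusted P = 0.369) were not called.

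Of 41 further genes that act next to the receptors (adaptors, phosphatases, ubiquitin ligases, inhibitors and receptor-processing enzymes), 39 were tested in the IRΔTan comparison and none was called in the IP by edgeR, 5 having an unadjusted P under 0.05, and 1 was lower by DESeq2. On HFD 7 of 40 were higher and 6 lower in the IP, both smaller shares than the 25.7% higher and 26.4% lower of all genes, with a median log2 change of the list of -0.11 beside -0.04 for all genes. By the smallest P, those higher were Nedd4, a ubiquitin ligase that binds Grb10 (0.51, SE 0.10), Sorl1, a sorting receptor that can return the insulin receptor to the cell surface (0.56, SE 0.12), and Ptprf, a receptor tyrosine phosphatase (0.47, SE 0.11). Those lower were the adaptors Crk (-0.47, SE 0.07) and Shc1 (-0.91, SE 0.18) and the suppressor of cytokine signalling Socs7 (-0.42, SE 0.08). Their adjusted P were 6.34e-05 to 0.00187. In the inputs 1 was higher and 1 lower, the latter being Nedd4 (-0.35; adjusted P = 0.0346), whose IP change had the opposite sign.

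Patterns over libraries are given as a description, since the points share groups, depth and cell makeup. Among the 8 genes over the 20 libraries the closest pairs were Igf2r and Grb10 (Pearson r = 0.90, and 0.91 over the 10 IPs) and Irs2 and Irs4 (0.88 and 0.84). Irs1 and Grb14 were the most opposed over the 20 libraries (-0.74). Of the 11366 other genes compared, those most like Grb10 over the 20 libraries were Zcchc12 (0.99), Pja1 (0.97) and Cpsf2 (0.96), and over the IPs Hsp90ab1, Hspa8 and Zcchc12 (0.99 each). Igf2r was nearest to Chd8, Rasgrf1 and Clstn3 (0.96 each), and over the IPs to Eif3a, Acsl4 and Ralgapa1 (0.99 each). For Irs4 they were Peg10 (0.96), Stat5b (0.95) and Sgsm1 (0.94), and for Irs2 Paf1, Rrp12 and Mybbp1a (0.94 each). For Grb14 they were Celf2 (0.99), Ankrd34c and Prox1 (0.98 each), and for Insr Plxnb3 (0.93), Kcnab3 and Zzef1 (0.92 each). Those nearest to Irs1 were Gm7694 (0.91), Snrnp40 and Ccdc191 (0.86 each). Igf1r had the weakest likeness, with Cachd1, Clptm1 and Scg3 at 0.77 to 0.78. Over the IPs those nearest to Insr were Tmem119, a gene of the microglia list, Cplane1 and Syt16 (0.93 each). For Igf1r they were Tmem62, Tac2 (0.90 each) and Trmt2a (0.88), and for Irs1 Ttc33 (0.91), Morf4l1 and Eif4h (0.88 each). For Irs2 they were Fkbp4, Sowaha and Gtf2f1 (0.97 each), and for Irs4 Rab39b, Hspd1 (0.94 each) and Alg2 (0.93). For Grb14 they were Celf2 (0.96), Prkch and 9330159F19Rik (0.95 each).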

How the data were processed

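Tanycyte TRAP-seq libraries (IP and input of 10 pools) were prepared without strand information. According to the submitters' processing notes and the study's methods, the authors ran the nf-core rnaseq pipeline with Salmon 0.14.1 on GRCm38.p6, and the notes also name STAR and DESeq2 1.30.0. The authors deposited estimated counts for 44674 genes, not scaled to depth, of which 28% of values were not whole. The authors also deposited, for each IP comparison, a table with log2 fold changes and p-values, whose gene names alone were used here.

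Estimated counts were rounded and tested with edgeR 4.0.16 (R 4.3.3) as quasi-likelihood tests with robust dispersions, TMM factors and a mean for each group and fraction. The IRΔTan comparison used 12 libraries, the HFD comparison 14 and their direct comparison 20. Genes tested were those of the authors' table that passed a filter with a minimum count of 10. CPM were taken relative to the summed counts of genes in either of the authors' tables and scaled over 20 libraries. Single levels were compared as log2(CPM + 0.5) by exact two-sided permutation, with a smallest possible p of 0.1 for 3 against 3 and 0.0286 for 4 against 3. Lengths and coordinates came from GENCODE (GRCm38) and promoters from RefSeq. Depth was 29469101 to 59385265 counts, and every member had enough counts to be tested. The tests were tried on simulated counts, drawn from the same mean per gene in every library apart from genes changed on purpose. Such counts lack the wide differences between IP and input of the real libraries, so no conclusion is drawn from them.

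Groups came from the sample labels. The IP and input of a pool come from the same lysate, and the labels number them alike. Deviations from group means correlated at 0.12 to 0.49 in 10 of 10 such pairs. Within its group, the IP was matched best by its own input in 8 of 10, the exceptions being HFD control pools 1 and 2. The main fits did not pair the libraries of a pool, so the SE and adjusted P printed for IP against input are unpaired. Pairing entered as an alternative, with the pool as a replicate block, and the paired value is given where it alters a call. Replicates are separate pools of mice.

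All 8 members were named, whatever their values. Of the list of 41 receptor-proximal genes, the 3 called genes per direction with the smallest p were named in the IP for IRΔTan and for HFD, and for likeness the 3 genes of highest r among genes with a mean of at least 5 CPM. The members and lists were chosen with earlier results of these data known. Marker lists were also kept for astrocytes (2 of 11 higher and 1 lower in the HFD control IPs), endothelial cells (0 higher and 1 lower of 6), mural cells (0 of 4) and the pars tuberalis (1 higher and 1 lower of 4), and none of their members was called in the IRΔTan IPs by edgeR or DESeq2. Genes on the opposite strand of members cannot be told apart from them in unstranded reads. Those with an entry reached at most 2.58 CPM (Airn, over Igf2r).

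The alternatives were DESeq2 1.42.0, median-ratio or library-total scaling, the whole count table in place of the authors' genes, no filter on low counts, fits of IPs or inputs alone or of all 20 libraries, blocks for the pool or the pool number, a covariate of 4 Y-linked genes, as males and females were pooled, removal of the trend in transcript length, leaving out each pool, and a log2 change of at least 0.5 beside the threshold.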

Additional observations from a re-analysis of the deposited data

Results flagged for a closer look

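Grb10 in the HFD control inputs had 1 library apart from the rest: pool 1 was at 173.6 CPM and the others at 195.0 to 197.6 CPM, and the gap to the nearest was 0.892 of the range, above Dixon's 95% critical value for 4 samples. It was the only such case in 16 groups of 4 libraries tested, and chance alone gives about 1 in 20.

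The effect of genotype or diet differed between IP and input by the test of the difference for 7 results, all described above. For genotype this was Insr, -1.35. For diet these were Igf2r, 1.08, Grb10, 0.98, Irs4, 0.53, Grb14, 0.52, Irs2, 0.50, and Insr, 0.39, in each case with the higher value in the IP.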

How the results depend on the processing

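Each result was recomputed under the alternatives listed with the processing. Of 1376 values of single members under an alternative, 1277 stayed on their side of the threshold, 78 lost a call, 9 gained one and 12 changed sign where a call stood under either setting. For 45 of the 80 pairs of member and comparison no alternative changed the call. The number of members called in the IRΔTan IPs rose from 1 to 3 with DESeq2, and in the HFD inputs from 0 to 1 with the inputs alone. In the direct comparison of HFD controls with IRΔTan it fell from 6 to 3 with the IPs alone. With a log2 change of at least 0.5 also required it fell to 3 there, from 8 to 5 for IP against input in IRΔTan and from 7 to 3 in HFD controls. Leaving out each pool gave 0 to 1 members for the genotype difference between IP and input, 2 to 6 for the diet difference and 3 to 6 for the direct comparison. With the pool as a replicate block the paired count for IP against input in IRΔTan was 7 in place of 8 (Igf1r lost), and no other call of a member changed under it. The block of pool number, a number that correlated over 0.1 in only 4 of 12 pairs across groups, took away the call of Insr on HFD (0.18; adjusted P = 0.0603) and that of Igf1r in the direct comparison (0.18; adjusted P = 0.1).

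Signs changed under 2 alternatives. With the length trend removed, Igf1r read 0.70 and 0.56 for IP against input in NCD controls and IRΔTan, -0.29 on HFD in the IP, -0.48 for the diet difference and -0.28 in the direct comparison. Insr read -0.15 on HFD in the IP and -0.12 for the diet difference, Irs1 -0.47 for the diet difference, and Igf2r 0.023 for IP against input in NCD controls. Under library totals, Igf1r read 0.33 and 0.054 for IP against input in NCD controls and IRΔTan, and Insr 0.16 in HFD controls. Library totals also moved the share of higher calls among all genes from 50.6% to 74.4%, 51.2% to 69.7% and 51.2% to 91.3% for IP against input in NCD controls, IRΔTan and HFD controls. That share moved from 54.2% to 37.0% in the HFD inputs, from 54.2% to 68.9% for the diet difference (where the median of all genes moved by 0.11) and from 49.1% to 61.9% in the direct comparison. The largest entry of each library, whose gene was not recorded, took 8.11% to 8.91% of counts in the HFD control IPs and 15.5% to 18.9% in the other IPs.

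Over all genes, the count called in the IRΔTan IPs was 13, and 237 with DESeq2, 50 with all genes of the count table, 2 with the IPs alone, 33 with all 20 libraries, 61 with the block of pool number, 8 with the Y-linked covariate and 2 to 30 without 1 pool. In the IRΔTan inputs it was 1, and 3 with DESeq2, 11 with the inputs alone and 0 with the Y-linked covariate. For the genotype difference it was 1, and 5 with DESeq2 and 0 to 7 without 1 pool. In the HFD inputs it was 1602, 4245 with the inputs alone and as low as 632 without 1 pool. With a log2 change of at least 0.5 it fell from 7062 to 4264 in the HFD IPs, from 1602 to 600 in the HFD inputs, from 7351 to 4432 for IP against input in HFD controls and from 6835 to 3933 in the direct comparison.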
